A study of Saccharomyces cerevisiae with 118 samples.

Results

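HAP2, HAP3, HAP4 and HAP5 encode the subunits of the Hap complex of Saccharomyces cerevisiae, and they are described here across every medium, age, strain and sorted fraction that was sequenced. They were chosen by name and are 4 of the 6692 genes listed in each of 4 tables, which hold 118 samples in 128 columns. All samples were poly(A)+ RNA of diploid mother enrichment program (MEP) yeast, in which estradiol makes the daughters inviable so that labelled mothers can be aged and purified. A Cre recombinase driven by the daughter-specific SCW11 promoter acts on loxP-flanked UBC9 and CDC20 in these cells. The wild type (WT) was heterozygous for TOM70-GFP and RPL13A-mCherry. Log phase cultures received no estradiol and so hold many newborn daughters.

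WT cells were taken in log phase or after 24 h or 48 h of ageing in rich medium with glucose (3, 4 and 4 samples), fructose (2 each), galactose (3 each) or, with 1 sample each, sucrose and a raffinose/galactose mixture. Raffinose was sampled in log phase and at 48 h, acetate in log phase and after 48 h or 72 h, and glucose once at 72 h. In the strain Pgpd-HAP4, 1 of the HAP4 copies of the diploid had the GPD promoter in front of it (KanMX6-Pgpd-HAP4/+), and it was grown on glucose (2 samples per age). The strains cat8 and cox9 gal80 (2 samples per age) and snf4 (1 in log phase and 2 at 24 h) were grown on galactose. In the media shift experiments (3 samples a group) WT cells were taken in log phase, after 24 h on glucose or galactose, or after 24 h in a first and 24 h in a second medium, although the labels of the shifted samples give their age as log. Cells aged for 48 h on glucose were also sorted by wheat germ agglutinin (WGA) stain, which marks bud scars, into low, medium and high fractions for Pgpd-HAP4 (2 samples each) and low and high for WT (1 each). In E36 the titles of the Pgpd-HAP4 fractions labelled high, medium and low for WGA end in GFP low, medium and high, so the stain behind these 3 fractions cannot be told from the labels. The paper's methods name both GFP and WGA intensity as the basis of its sorts. A last table holds 13 mutants on glucose, hap4 among them, with 1 sample in log phase and at 48 h and an extra one of pmr1 at 24 h. Samples of most groups come from different experiments, numbered E30 to E66 in most titles. The samples called E35 carry no experiment number in their titles. The cat8, cox9 gal80 and snf4 samples on galactose all come from E56 and are compared with WT from E34, E35 and E56. Strain and experiment are thus partly confounded there. Media shift samples come from E53_1, E53_2 and E53_3. Where the labels name no separate cultures, p-values measure only the spread between these samples.

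Hap2, Hap3 and Hap5 together bind the DNA element CCAAT, and none of them binds it alone. Hap4 makes no contact with DNA of its own in this complex but brings the activation domain, and it is the subunit whose gene is repressed by glucose. The complex is known in budding yeast as the activator of genes for the respiratory chain, the tricarboxylic acid cycle and heme synthesis.

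On the R64 build HAP4 (YKL109W) lies at chrXI:232227-233891 on the forward strand, HAP2 (YGL237C) at chrVII:52731-53528 on the reverse strand, HAP3 (YBL021C) at chrII:181660-182094 on the reverse strand and HAP5 (YOR358W) at chrXV:1010161-1010889 on the forward strand. They have 554, 265, 144 and 242 codons, and no other gene of the tables overlaps them. The letters CCAAT were searched on both strands (ATTGG on the other) in the 600 bases before each start codon of the RefSeq R64 sequence. HAP4, HAP3 and HAP2 each had 1 match and HAP5 had 0, against a match in 70.3% of 5999 protein-coding genes and in 42 of 46 respiratory genes listed further on. The windows that follow show these matches and 1 of each of 3 target genes, with the searched letters in capitals, 5′ to 3′ on the strand of the gene. They are shown because this is the element the complex binds, and a match in a window is a description, not a bound site.
HAP4: acacatatttATTGGtctcctagta
HAP3: tagctttccgCCAATcaaactcaag
HAP2: gctggacatcCCAATgcatgttgtc
COX6: tccatacgagCCAATcagggccccg
KGD1: gtttagattcATTGGgtgtgtacta
HEM1: ttcgtcgctcATTGGtctgcggccg
The HAP4 match (chrXI:232124-232148) begins 93 bases before the start codon, the HAP3 match (chrII:182145-182169) 65 bases and the HAP2 match (chrVII:54054-54078) 540 bases, inside the neighbouring gene MTO1. COX6, a subunit of cytochrome c oxidase, has 3 matches, KGD1, a subunit of alpha-ketoglutarate dehydrogenase, has 2 and HEM1, the first enzyme of heme synthesis, has 1. COX4 and CYC1, which encode another oxidase subunit and cytochrome c, have 0 in this window. In Pgpd-HAP4 the oligonucleotides used for the swap match the chromosome up to 201 bases before the HAP4 start codon and from the start codon on, so the 201 bases between them, with the CCAAT match, are absent from the altered copy.

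The deposited values are log2 read counts, made comparable inside a table by size factors, and "level" below is such a value. Differences are given between means of quantile-normalised log2 values with limma's standard error (SE), and a gene is called at a Benjamini-Hochberg adjusted p under 0.01 over all genes tested. Counted reads ranged from 2901884 to 22453467 per sample outside the sort table, where the low fractions of E36 had 561582 and 565971. In the sorted fractions the loxP-flanked UBC9 stood at 5.45 to 5.56 in the low WGA fractions of Pgpd-HAP4 and at 8.96 to 9.11 in the high ones. In the mutants UBC9 at 48 h was 8.45 in cat8 and at most 5.57 in every other strain, and in log phase it was lowest in hap4, so these 2 libraries stand apart.

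HAP4 was the most variable of the 4 transcripts and, per length, usually the most abundant. Over the 59 samples of the carbon source table its level ran from 7.99 to 13.10, a range of 5.11 log2 units. The range was 1.70 for HAP2, 1.70 for HAP3 and 1.75 for HAP5. The top HAP4 value came from Pgpd-HAP4, where HAP4 is raised by design. In WT samples HAP4 ran from 7.99 to 12.37. Median normalised counts per kb were 1692 for HAP4, 433 for HAP3, 323 for HAP5 and 231 for HAP2. Per kb, HAP4 exceeded all 3 of the others in 57 of 59 samples of that table and in 21 of 24 of the media shift table. It did so in 12 of 12 of the sort table and in 20 of 33 of the mutants table. These include samples of Pgpd-HAP4 and hap4, where HAP4 is altered by design. The ratio of HAP4 to the geometric mean of the other 3, per kb, was 0.523 to 2.51 in WT glucose log phase, 4.34 to 4.69 in galactose log phase and 13.7 to 16.2 in Pgpd-HAP4 log phase. Per length, the transcript of the subunit with the activation domain was thus below that of the DNA-binding subunits at the low end of glucose log phase and above it in galactose and Pgpd-HAP4 log phase.

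**Figure D1:**
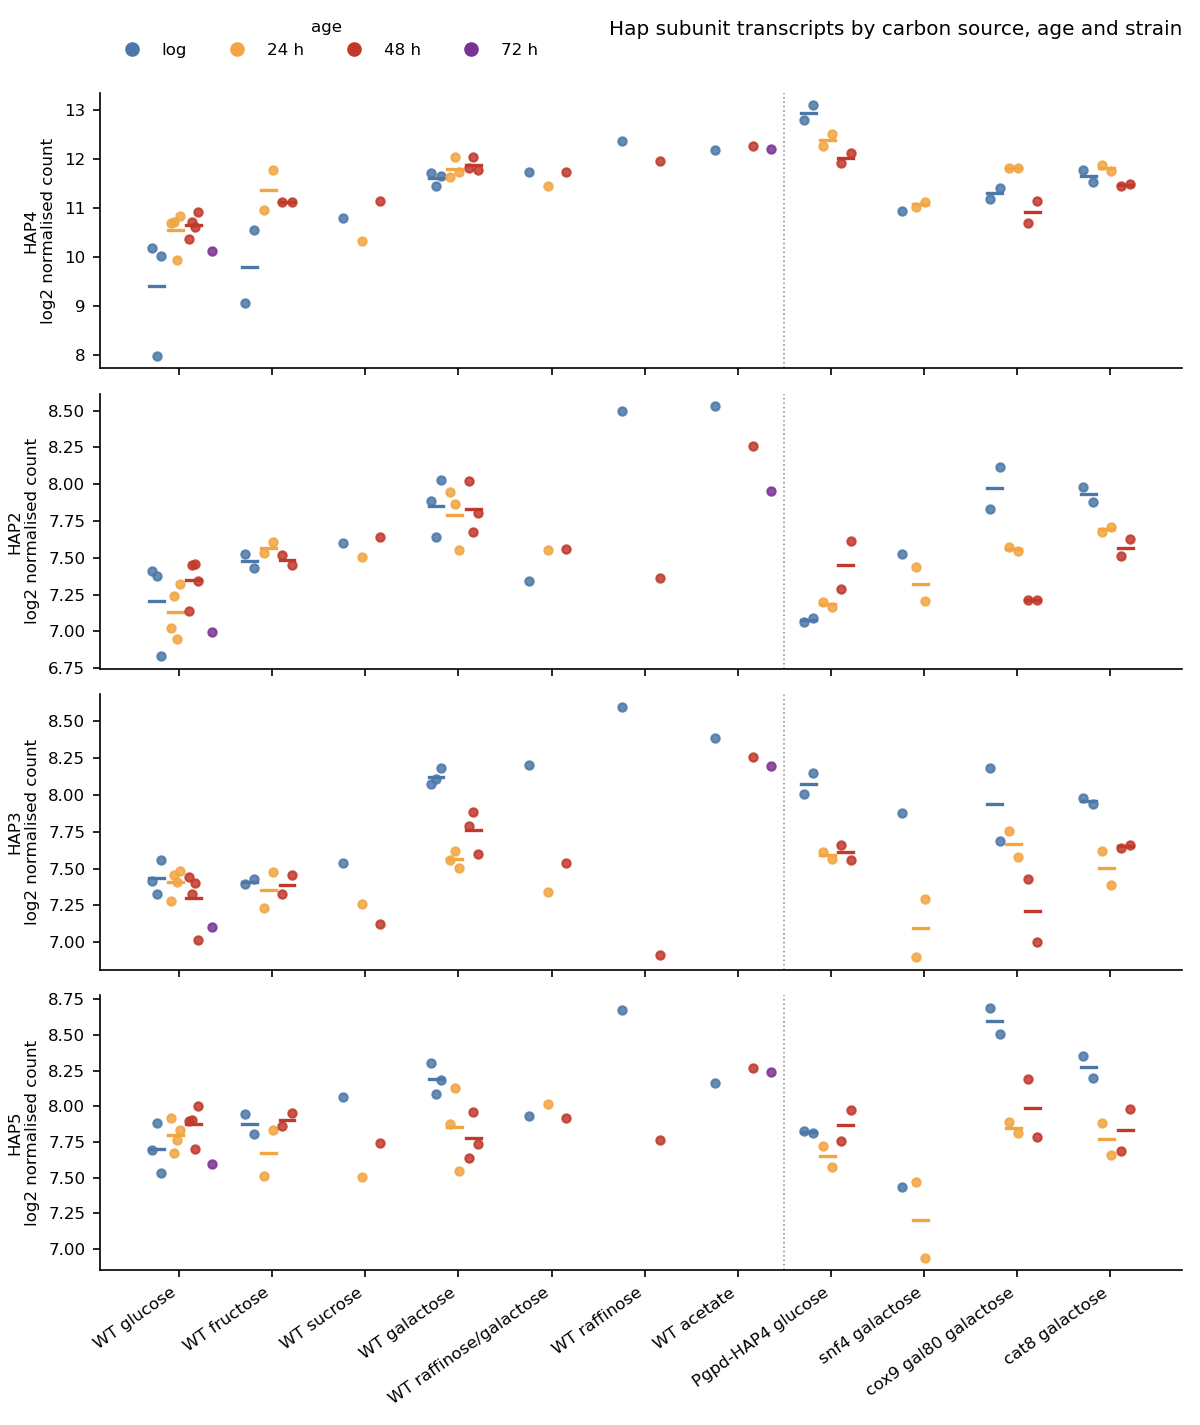
Level (log2 normalised count, axes not starting at 0) of each Hap subunit in every sample of the carbon source table, by medium and strain, with ages in colour and a bar at the mean of groups with 2 or more samples. HAP4 spans 7.99 to 13.10, or 7.99 to 12.37 in WT, and the other 3 subunits span less than 2 log2 units each.

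The first question was how the subunits respond to the carbon source, glucose being the medium that represses respiration. HAP4 had a higher mean on galactose than on glucose at every age, called at 24 h and 48 h. At log phase its level was 10.19, 7.99 and 10.03 on glucose and 11.71, 11.46 and 11.65 on galactose, so the groups did not overlap but 1 glucose sample (E34) stood far below the other two. The difference was 2.04 ± 0.53 (SE), a 4.12-fold higher mean, and missed the threshold (adjusted p = 0.0398, 8.53% of genes called). Without that glucose sample it was 1.41, and called (adjusted p = 0.00619). Within experiments it was 3.72 in E34 and 1.43 in E35 on the deposited scale. In other glucose log phase samples, scaled in separate tables, HAP4 was 8.35 to 8.82 in 3 WT media shift samples. In the 12 mutants other than hap4 it was 7.90 to 9.74, with a median of 8.80. All of these lay below 10.19 (E30_2) and 10.03 (E35), so a fit without E34 keeps the highest glucose levels. In bulk samples like these, fewer cells of a kind and less RNA per cell cannot be told apart.

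At 24 h HAP4 stood at 10.69, 10.73, 9.94 and 10.84 on glucose and at 11.64, 12.04 and 11.74 on galactose. The difference of 1.19 ± 0.22, or 2.29-fold, was called (adjusted p = 0.0069, limma, 14.4% of genes called). It lost the call when any sample but glucose E34 was left out (adjusted p up to 0.0275). At 48 h the levels were 10.38, 10.72, 10.62 and 10.93 on glucose and 11.82, 12.04 and 11.77 on galactose. The difference of 1.05 ± 0.14, or 2.06-fold, was called with all samples (adjusted p = 0.0019, 14% of genes called) and with each sample left out in turn. With the experiment as a replicate block, which 2 experiments with both media allow, it was 1.40 at 24 h and 0.96 at 48 h and not called (adjusted p = 0.0242 and 0.0199). That fit has a term for each experiment and leaves almost no residual degrees of freedom, so lost calls there say little about the difference. At 48 h UBC9 was also higher on galactose (7.79 to 8.20 against 5.38 to 5.76), and the log2 sum of 12 haploid-specific genes, which diploids repress, was lower (9.74 to 9.84 against 10.20 to 10.44), and their part in these differences was not tested.

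HAP2 was also called between these media in aged cells. Its level was 7.03, 7.24, 6.95 and 7.32 on glucose at 24 h and 7.95, 7.86 and 7.56 on galactose, without overlap, and the difference was 0.67 ± 0.13 (adjusted p = 0.00907). At 48 h it was 0.77 ± 0.15 (adjusted p = 0.00634), with 7.14 to 7.46 on glucose and 7.68 to 8.02 on galactose. Both calls were lost with any sample but 1 left out, glucose E35 at 24 h and glucose E34 at 48 h (adjusted p up to 0.0382), and both were lost with the replicate block (adjusted p = 0.0719 and 0.0294). With every sample scaled to an equal total the HAP2 difference at 48 h was 0.19 and not called (adjusted p = 0.143), on a scale where the median of all genes moved by −0.29. At log phase the HAP2 difference was 0.35 ± 0.15 (adjusted p = 0.129). HAP3 stood at 7.42, 7.33 and 7.56 on glucose and 8.08, 8.11 and 8.18 on galactose at log phase, and its differences of 0.43 at log phase, then 0.15 and 0.79 at the later ages, were not called (adjusted p = 0.0219, 0.19 and 0.011). For HAP5 the differences were 0.29, −0.00 and 0.05, and the 95% confidence interval at 48 h was −0.21 to 0.31.

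On the other sugars HAP4 levels are described without a test where there was 1 sample. Fructose, like glucose a preferred hexose, gave HAP4 levels of 9.06 and 10.55 in log phase. At 24 h they were 10.95 and 11.77, and at 48 h they were 11.14 and 11.12. Against glucose these were 0.37, 0.72 and 0.45 higher and not called (adjusted p = 0.96, 0.367 and 0.817). None of the 5941 genes tested passed in any of the 3 fructose comparisons (0% called by limma, with 340, 882 and 327 genes at an unadjusted p under 0.05). Sucrose gave 10.80, 10.34 and 11.15, and raffinose/galactose 11.74, 11.46 and 11.74, from log phase to 48 h. Raffinose gave 12.37 in log phase and 11.97 at 48 h, and acetate, which can only be respired, gave 12.18, 12.27 and 12.20. The acetate and raffinose values lie above every WT glucose and fructose sample.

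Among WT samples, HAP2 and HAP3 were highest in log phase on raffinose and acetate, and HAP5 in log phase on raffinose. In these 2 media HAP2 was 8.50 and 8.53, HAP3 8.60 and 8.38, and HAP5 8.67 and 8.16, in the single samples of each. On acetate HAP3 and HAP5 were still at 8.19 and 8.24 at 72 h. On raffinose all 3 were lower at 48 h, with HAP2 at 7.36, HAP3 at 6.91 and HAP5 at 7.76.

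The next question was how the subunits change with age. On glucose HAP4 was higher at 48 h in each of the 3 experiments that had both ages, and the size of the difference varied widely between them. From log phase to 48 h the level changed by 0.53 in E30_2, 2.63 in E34 and 0.90 in E35 on the deposited scale, and all 4 samples at 48 h lay above the 3 of log phase. Over the same ages UBC9 went from 8.82 to 9.11 down to 5.38 to 5.76 and the haploid-specific sum from 9.02 to 9.20 up to 10.20 to 10.44, and their part in the age differences was not tested. The difference of 1.33 ± 0.45, or 2.52-fold, missed the threshold (adjusted p = 0.0336, where 48.4% of genes were called), and without log phase sample E34 it was 0.70 (adjusted p = 0.0115). At 24 h it was 1.11 ± 0.49 (adjusted p = 0.104, 25.6% called), and 0.48 without that sample. Both fits without log phase E34 keep the log phase samples with the highest HAP4 levels on glucose. Between 24 h and 48 h HAP4 changed by −0.32, −0.01, 0.67 and 0.09 in the 4 experiments.

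On galactose HAP4 was 0.27 ± 0.15 higher at 24 h and 0.34 ± 0.12 at 48 h than in log phase (adjusted p = 0.275 and 0.116, with 2.12% and 3.79% of genes called). The change to 48 h was 1.00 smaller on galactose than on glucose, and the interaction was not called (SE 0.55, adjusted p = 0.184, 13.2% of genes called). On fructose HAP4 was higher by 1.472 ± 0.57 at 24 h and 1.42 ± 0.47 at 48 h, which were not called (adjusted p = 0.191 and 0.0698, with 0.0842% and 14.8% called). At 48 h this was 2.11 and called without the log phase sample of E35 (adjusted p = 0.00196), and 0.73 without that of E34.

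HAP3 fell with age on galactose. Its level was 8.08, 8.11 and 8.18 in log phase and 7.56, 7.62 and 7.51 at 24 h, a fall of 0.62 ± 0.08 that was called (adjusted p = 0.00969). Leaving out any sample but log phase E35 ended this call (adjusted p up to 0.0619), as did the replicate block (adjusted p = 0.0592). At 48 h the level was 7.79, 7.89 and 7.60, and the difference of −0.46 was not called (adjusted p = 0.0398). On glucose HAP3 was called as lower at 48 h, by −0.81 ± 0.17 (adjusted p = 0.00376), but this rests on the scaling. The levels were 7.42, 7.33 and 7.56 in log phase and 7.44, 7.33, 7.40 and 7.02 at 48 h, they overlapped, and their means differed by −0.14. With every sample scaled to an equal total the difference turned to 0.41, and on that scale the median of all genes moved by 0.58, against −0.12 with quantile normalisation and 0.04 as deposited. Without log phase E30_2, E34 or E35 the adjusted p was 0.012, 0.0102 or 0.0164.

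HAP2 and HAP5 gave no call for age in this table. On glucose at 48 h HAP2 was at −0.55 ± 0.16 (adjusted p = 0.017) and HAP5 at −0.28 ± 0.11 (adjusted p = 0.0512), and both means were higher at 48 h on the deposited scale, by 0.14 and 0.18. On galactose HAP5 was at 8.30, 8.09 and 8.18 in log phase and 7.64, 7.96 and 7.74 at 48 h, without overlap, and its difference of −0.51 ± 0.12 was not called (adjusted p = 0.0305).

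Pgpd-HAP4 was made to raise HAP4 on glucose, and the HAP4 level checks the label. It was 12.80 and 13.10 in log phase, 12.27 and 12.52 after 24 h and 11.93 and 12.12 after 48 h, above every WT glucose sample of the same age. The excess over WT was 3.09 ± 0.66 in log phase, 1.71 ± 0.24 at 24 h and 1.53 ± 0.17 at 48 h (adjusted p = 0.101, 0.0188 and 0.0255). Calls were rare in these comparisons, 1.53% of genes in log phase, 1.4% at 24 h and 0% at 48 h by limma, where 494 genes had an unadjusted p under 0.05. Without WT log phase sample E34 the log phase excess was 2.46 (adjusted p = 0.00943), and without WT 24 h sample E34 that at 24 h was 1.51 (adjusted p = 0.00287). The log phase fit then keeps the highest WT levels. The Pgpd-HAP4 samples compared here come from E30_1 and E30_2 only, and the WT samples also from E34 and E35. Strain and experiment are thus partly confounded here too. Within E30_2 the log phase excess was 2.90 on the deposited scale. Within E30_1 and E30_2 it was 1.58 and 1.79 at 24 h and 1.55 and 1.40 at 48 h. The native copy is still present, and reads of the 2 copies cannot be told apart.

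With age the HAP4 level of this strain was lower in both experiments, E30_1 and E30_2. WT had no log phase sample in E30_1. From log phase to 48 h WT was higher by 0.53 in E30_2 and was also higher in E34 and E35. Over the same ages Pgpd-HAP4 moved by −0.88 in E30_1 and −0.98 in E30_2 on the deposited scale. With quantile normalisation the difference was −0.23 ± 0.13 and not called (adjusted p = 0.193, 31.8% called), and on the deposited scale it was −0.93 and called (adjusted p = 0.00652). The interaction with WT was −1.56 ± 0.67 (adjusted p = 0.643, with 0% of genes called by limma and 445 at an unadjusted p under 0.05). Of the DNA-binding subunits, HAP3 was called with age here, from 8.00 and 8.15 to 7.66 and 7.56 (−0.87 ± 0.08, adjusted p = 0.0041). That call was lost with each of the 4 samples left out (adjusted p 0.0214 to 0.0261), and with equal totals the difference was 0.06.

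No other subunit was called in Pgpd-HAP4 against WT, in comparisons where HAP4 itself was not called either. In log phase HAP3 was at 8.00 and 8.15 in Pgpd-HAP4 against 7.33 to 7.56 in WT. The difference of 0.52 ± 0.09 was not called (limma, adjusted p = 0.056). At 24 h and 48 h HAP3 differed by 0.24 ± 0.10 and 0.46 ± 0.19 and was not called (limma, adjusted p = 0.277 and 0.597). From log phase to 48 h, 911, 1015 and 494 of the 5941 genes tested had an unadjusted p under 0.05. HAP2 and HAP5 overlapped with WT at every age, and their differences in log phase were −0.13 and 0.09 (95% confidence intervals −0.52 to 0.26 and −0.18 to 0.35).

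Strains deleted for other regulators or for a respiratory subunit were compared with WT on galactose. CAT8, an activator of gluconeogenic genes, and SNF4, a subunit of the Snf1 kinase that relieves glucose repression, had at most 1 and 2 reads in their own strains, and COX9 and GAL80 at most 3 and 4. In cat8 HAP4 was 11.79 and 11.54 in log phase, 11.88 and 11.76 after 24 h, and 11.44 and 11.50 after 48 h, and no subunit was called at any age (0.0337%, 0.269% and 0.236% of genes called). The HAP4 difference from WT at 48 h was −0.36 ± 0.11 (adjusted p = 0.396). In cox9 gal80, which lacks a subunit of cytochrome c oxidase, HAP4 was 11.19 and 11.41 in log phase, 11.81 and 11.81 after 24 h, and 10.69 and 11.14 after 48 h. At 48 h HAP4, HAP2 and HAP3 had lower means than WT of that age, with 2 samples against 3. The differences were −0.81 ± 0.16, −0.90 ± 0.16 and −0.81 ± 0.14. They missed the threshold (limma, adjusted p = 0.0522, 0.0416 and 0.0399) where 0.185% of genes were called. Of the 5941 genes tested, 1407 had an unadjusted p under 0.05 in this comparison. In WT of the same experiment, E56, the 3 levels at 48 h were 11.77, 7.81 and 7.60. UBC9 was then at 3.52 and 6.63 in cox9 gal80 and at 7.79 to 8.20 in WT, and its part in the differences was not tested. Shares called were 0.0505% in log phase and 0.488% at 24 h in this strain.

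In snf4 the means of all 4 subunits were below those of WT on galactose at 24 h, with 2 samples against 3. HAP4 was 11.03 and 11.12, HAP2 7.43 and 7.21, HAP3 6.90 and 7.29, and HAP5 7.47 and 6.94. WT of the same experiment, E56, had HAP4 at 11.74, HAP2 at 7.56, HAP3 at 7.51 and HAP5 at 7.55. The differences from all WT samples were −0.62 ± 0.15 for HAP4, −0.57 for HAP2, −0.61 for HAP3 and −0.77 for HAP5. None was called (limma, adjusted p = 0.0422, 0.0374, 0.0492 and 0.0655, with 2.86% of genes called). Of the 5941 genes tested, 2118 had an unadjusted p under 0.05 in this comparison. UBC9 was at 5.64 to 6.04 in these snf4 samples and 8.05 to 8.18 in WT, and the part of this in the differences was not tested.

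The media shift experiments asked whether the subunits keep the pattern of the first medium after cells move to a second. In log phase HAP4 was 8.82, 8.35 and 8.61 on glucose and 12.23, 12.02 and 12.03 on galactose, a difference of 3.28 ± 0.12 or 9.68-fold (adjusted p = 1.17e-05, 53.4% of genes called). HAP3 was higher on galactose by 0.49 ± 0.07 (adjusted p = 0.0017) and HAP5 by 0.40 ± 0.06 (adjusted p = 0.0025), and for neither did the groups overlap. The HAP5 call was lost without glucose sample E53_3 (adjusted p = 0.0113). HAP2 was at 7.30 to 7.69 on glucose and 7.91 to 8.06 on galactose and was not called (0.27 ± 0.09, adjusted p = 0.0457).

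With age HAP4 rose on glucose. It reached 10.48, 9.97 and 9.84 at 24 h, 1.42 ± 0.20 above log phase and called (adjusted p = 0.0042, 17.5% of genes called). The call was lost without 24 h sample E53_2 or without any log phase sample (adjusted p up to 0.0199). On galactose it stood at 11.81, 11.55 and 11.60, −0.39 ± 0.10 from log phase and not called (adjusted p = 0.0307, 10.8% called). At 24 h the media still differed by 1.46 ± 0.18 (adjusted p = 0.00464, 4.12% called), and all leave-outs but that of glucose E53_1 ended this call (adjusted p up to 0.0236). HAP2 fell on glucose by 0.61 ± 0.11 (adjusted p = 0.00973, 0.0109 with the experiment as a replicate block and 0.0139 to 0.0366 with a sample left out). With equal totals, where the median of all genes moved by 0.22, the HAP2 difference was −0.13 (adjusted p = 0.444). HAP5 fell on galactose by 0.54 ± 0.08 (adjusted p = 0.0071), from 8.28 to 8.38 in log phase to 7.52 to 7.83, and only the leave-out of 24 h sample E53_1 kept the call (adjusted p up to 0.0348).

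**Figure D2:**
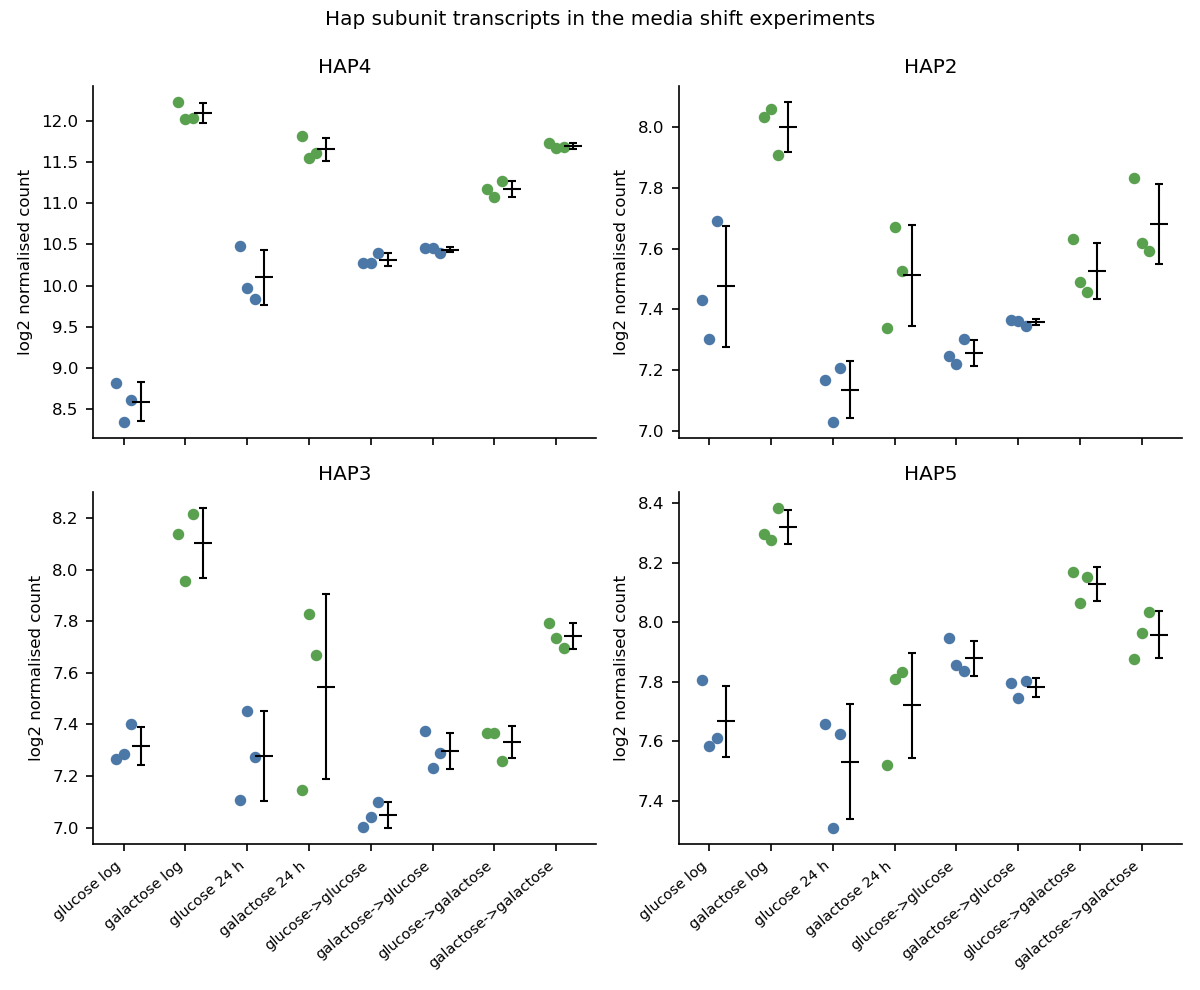
Level (log2 normalised count, axes not starting at 0) of each Hap subunit in the 8 groups of the media shift experiments, 3 samples each, with mean and SD; blue for glucose and green for galactose as the last medium, and arrows for first and second medium. HAP4 after the shift to glucose (10.40 to 10.46) sits with cells kept on glucose, and after the shift to galactose (11.07 to 11.27) between the unshifted groups.

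After the shift HAP4 followed the second medium. It was 10.27, 10.27 and 10.40 in cells kept on glucose and 10.46, 10.45 and 10.40 in those moved from galactose to glucose, and this difference of 0.08 ± 0.07 was not called (95% confidence interval −0.10 to 0.25, adjusted p = 0.488, 0.184% of genes called). Cells kept on galactose had 11.73, 11.67 and 11.68, and after the move to glucose HAP4 was 2.31-fold lower, a difference of −1.21 ± 0.06 (adjusted p = 0.000106, 7.3% called), a call held with every sample left out. Cells moved from glucose to galactose had 11.17, 11.07 and 11.27, above those kept on glucose by 0.88 ± 0.09 or 1.84-fold (adjusted p = 0.00202, 3.79% called). That call was lost without glucose to galactose E53_1 or E53_3 or glucose to glucose E53_2 (adjusted p 0.0109 to 0.0148).

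HAP4 after the move to galactose was below the level of cells always on galactose. The difference was −0.41 ± 0.07 (adjusted p = 0.0087, 14.3% of genes called), with no overlap, and with the experiment as a replicate block the adjusted p was 0.0182. Without any 1 sample it was 0.0184 to 0.0294. Staying for a second period in the same medium moved HAP4 by 0.25 ± 0.17 on glucose and 0.07 ± 0.09 on galactose (adjusted p = 0.285 and 0.709, with 5.14% and 0.15% called).

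HAP3 after the shifts also differed by medium history. It was 7.80, 7.74 and 7.70 in cells kept on galactose, 7.37, 7.37 and 7.26 after glucose to galactose, 7.37, 7.23 and 7.29 after galactose to glucose and 7.003, 7.04 and 7.10 in cells kept on glucose. The means of both shifted groups were between those of the unshifted ones. Relative to cells kept on galactose HAP3 was lower by 0.72 ± 0.06 after the move from glucose (adjusted p = 0.00133, held with each sample left out), and by 0.22 with equal totals, which was not called (adjusted p = 0.0318). It was also lower after the move to glucose, at −0.49 ± 0.06 (adjusted p = 0.0031), a call that each leave-out ended (adjusted p 0.0105 to 0.0188). HAP5 was at 8.17, 8.06 and 8.15 after the move to galactose, above 7.88 to 8.03 in cells kept on galactose, a difference of 0.03 ± 0.07 after quantile normalisation (adjusted p = 0.716).

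Cells sorted at 48 h on glucose asked whether the subunits vary between fractions of an aged culture. The fractions are named by WGA, but GFP intensity was also part of the sort. HAP4 had no order by WGA stain that the Pgpd-HAP4 sorts shared. In Pgpd-HAP4 its level was 11.16 and 11.65 in the low, 11.79 and 11.50 in the medium and 11.78 and 11.48 in the high fraction (E36 and E66), and in WT 10.30 in the low and 10.51 in the high. The low minus high difference in Pgpd-HAP4 was −0.23 ± 0.30 on deposited values (95% confidence interval −0.96 to 0.51, adjusted p = 0.562, 14.4% of genes called).

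HAP3 was lower and HAP5 higher in the low than in the high fraction of all 3 sorts. HAP3 was 5.45, with 3 reads, and 7.04 in the low and 8.20 and 8.22 in the high fraction of Pgpd-HAP4, and 7.16 and 8.06 in WT. HAP5 was 8.91 and 8.77 in the low and 7.57 and 7.60 in the high fraction, and 8.16 and 7.80 in WT. In the medium fractions of Pgpd-HAP4 HAP3 was 8.03 and 7.49, between the other fractions, and HAP5 was 7.27 and 7.55, below both of them. The low minus high differences were −1.96 ± 0.55 for HAP3 and 1.25 ± 0.25 for HAP5, and neither passed the threshold (adjusted p = 0.0347 and 0.0136). Low minus medium gave 1.43 ± 0.25 for HAP5 (adjusted p = 0.022), in a comparison where 0% of genes passed and 2330 had an unadjusted p under 0.05 (limma). Medium minus high likewise had 0% called and 619 such genes.

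Marker genes also differed between the fractions. The haploid-specific sum was 11.16 and 11.40 in the low and 9.49 and 9.53 in the high fraction of Pgpd-HAP4, and 10.78 and 9.72 in WT. UBC9 was lower in the low fraction of each sort. The low fractions of E36 were the shallowest libraries, with 565971 reads in Pgpd-HAP4 and 561582 in WT, where HAP2, HAP3 and HAP5 had 7, 11 and 22 reads. The part of these in the HAP3 and HAP5 values was not tested.

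**Figure D3:**
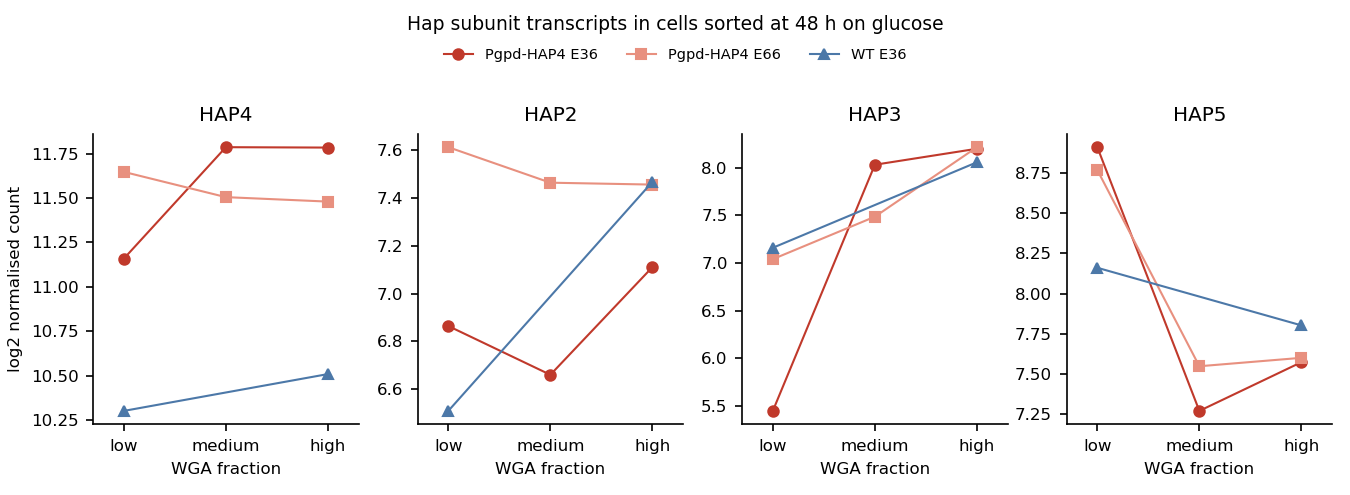
Level (log2 normalised count, axes not starting at 0) of each Hap subunit in cells sorted by WGA stain at 48 h on glucose, joined within each sort. HAP5 is highest in the low fraction and HAP3 highest in the high fraction of all 3 sorts; the low HAP3 value of 5.45 rests on 3 reads.

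Among the mutants on glucose, hap4 first checks its label. HAP4 had 3 reads in log phase (exact Poisson 95% interval 0.619 to 8.77) and 11 reads at 48 h (5.49 to 19.7) in that strain. The intervals cover counting error only. In its absence HAP2 was at 7.59 and 7.01, HAP3 at 7.86 and 7.28, and HAP5 at 7.93 and 7.73, in log phase and at 48 h. All 3 were lower at 48 h, with 1 sample per age and no test. UBC9 was at 7.96 in the log phase library of hap4 and 8.73 to 9.16 in the other mutants, and the haploid-specific sum was 9.53, the highest of the log phase libraries in this table, and their part in the values was not tested.

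Of the 12 other mutants HAP4 was higher at 48 h than in log phase in 11. The median change over the 12 was 1.39 and the largest 2.09 in snf4. The lowest log phase level was 7.90 in snf4 and the highest at 48 h was 10.73 in clb5, which lacks an S-phase cyclin. The exception was mig1, the strain without the repressor Mig1, where HAP4 went from 9.74, the highest log phase level of the mutants, to 9.31, the lowest at 48 h. HAP3 was higher at 48 h in 1 of 12 strains, HAP2 in 4 and HAP5 in 8. The exception for HAP3 was the cat8 strain, whose 48 h library stands apart in UBC9. These counts use the deposited scale, and how many of all genes moved 1 way in as many strains was not counted. The log phase and 48 h samples of all 12 mutants but gcn4 come from the same experiment, so the strains are not separate experiments. WT was at 10.23 and 10.06 in log phase in this table, above all 12 mutants, but these WT libraries come from other experiments (E30_2 and E35) than the mutants, so strain and experiment cannot be told apart. In tables scaled separately, WT was at 7.99 in E34 and 8.35 to 8.82 in the media shift experiments, not above all 12 mutants.

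**Figure D4:**
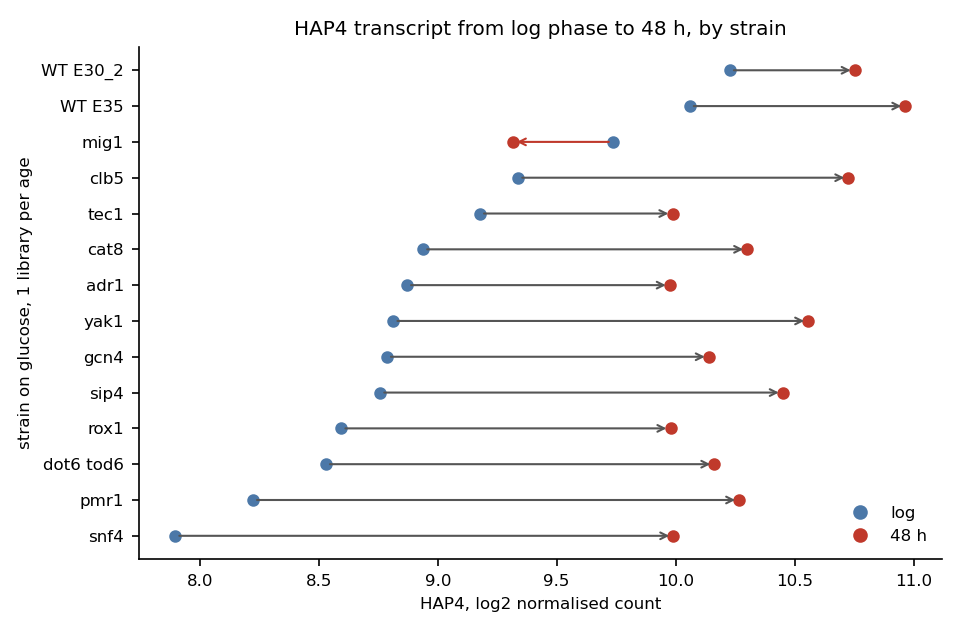
HAP4 level (log2 normalised count, axis not starting at 0) in log phase and at 48 h on glucose for each strain of the mutants table other than hap4, 1 library per age, with an arrow from log phase to 48 h. The level is higher at 48 h in every strain shown except mig1, where it goes from 9.74 to 9.31.

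The transcripts that the complex is known to activate were followed with a list of 46 genes of the respiratory chain, the tricarboxylic acid cycle and the ATP synthase, with HEM1. Most of them were called higher on galactose and in Pgpd-HAP4 before 48 h. Galactose against glucose gave 42 of 46 called higher in log phase (median 2.14, 8.53% of all genes called). It gave 42 at 24 h (1.39, 14.4%) and 33 at 48 h (0.88, 14%), with 0 lower. The medians of all genes were −0.10, −0.05 and −0.00. With the experiment as a replicate block 0, 16 and 0 of the 46 were called. That fit has a term for each experiment and leaves almost no residual degrees of freedom, so lost calls there cannot be read as smaller differences. Pgpd-HAP4 against WT gave 40 higher in log phase (median 1.80, 1.53% of all genes called) and 37 at 24 h (1.14, 1.4%). At 48 h it gave 0 (1.00, 0% by limma), where all 46 differences were positive. In cells moved from glucose to galactose 27 were higher than in cells kept on glucose (median 0.64, 3.79%), and 6 with the experiment as a replicate block. In cells moved from galactose to glucose 40 were lower than in cells kept on galactose (median −0.76, 7.3%).

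These genes were likewise lower after the move to galactose. Against cells always on galactose 25 of 46 were lower (median −0.44, 14.3% of genes called), and 11 with the replicate block. Among log phase samples of the media shift experiments 46 of 46 were higher on galactose (median 2.03, 53.4% of genes called), and at 24 h 38 (1.28, 4.12%). With age on glucose 26 rose by 24 h (median 0.46, 25.6% of genes called) and 37 by 48 h (1.21, 48.4%), and in the media shift experiments 17 rose by 24 h (0.53, 17.5%), or 8 with the replicate block. On galactose 0 were called at 24 h or 48 h (medians −0.22 and −0.03), while limma called 126 and 225 genes in all. The change to 48 h was called smaller on galactose than on glucose for 36 of 46 (median −1.19, 13.2%), or 22 with the replicate block. In Pgpd-HAP4 22 were called higher and 1 lower at 48 h than in log phase, where 31.8% of genes were called, but the median of 0.51 was −0.05 on the deposited scale, where 11 were called.

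Single targets show the range. SDH2, a subunit of succinate dehydrogenase, was 2.16 ± 0.09 higher on galactose at 24 h (adjusted p = 1.05e-05) and 2.83 ± 0.08 higher in Pgpd-HAP4 in log phase (adjusted p = 0.00074). CYC1 was 2.13 ± 0.11 and 2.73 ± 0.09 higher (adjusted p = 2.76e-05 and 0.00105), COX4 1.70 ± 0.08 and 2.25 ± 0.13 (1.24e-05 and 0.0025) and COX6 1.48 ± 0.08 and 1.76 ± 0.08 (2.48e-05 and 0.00123). HEM1 was 0.21 ± 0.06 and 0.32 ± 0.09 higher and not called in either (0.0424 and 0.188). COX4 and CYC1, without CCAAT in the 600 bases searched, were called in both, as was COX6 with 3 matches.

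HAP1 encodes the heme-responsive activator that shares targets with the complex. It was not called in those comparisons, at −0.10 ± 0.08 on galactose at 24 h and −0.36 ± 0.14 in Pgpd-HAP4 in log phase (adjusted p = 0.374 and 0.333). Of a list of 24 regulators of glucose repression and respiration that includes HAP1, 2 were called higher and 2 lower on galactose in log phase, 6 and 3 after 24 h and 1 and 2 after 48 h, where 8.53%, 14.4% and 14% of all genes were called. The log phase calls, named after their values were seen, were the activators CAT8 (4.09, adjusted p = 0.000972) and ADR1 (3.20, 0.000446) above, and the repressors MIG2 (−3.07, 0.00158) and MIG3 (−2.77, 0.00154) below. None of the 24 was called in Pgpd-HAP4 against WT at any age.

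HAP4 and its targets were not in step everywhere. In glucose log phase HAP4 spanned 7.99 to 10.19 in the first table, 8.35 to 8.82 in the shift table and 7.90 to 9.74 in the 12 mutants. The median level of the 46 genes there was 9.45 to 9.61, 9.47 to 9.63 and 9.44 to 9.86. From log phase to 48 h the 46 genes changed by a median of 1.06 in E30_2, 0.83 in E34 and 1.18 in E35, so E34, where HAP4 changed most, had the smallest change of the 3. From 24 h to 48 h they changed by 0.40 to 0.76 in the 4 experiments, with HAP4 changing by −0.32 to 0.67. In hap4 the median change to 48 h was −0.38 and in mig1 0.01, against 0.34 to 1.30 in the other 11 mutants, with 1 sample per age.

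**Figure D5:**
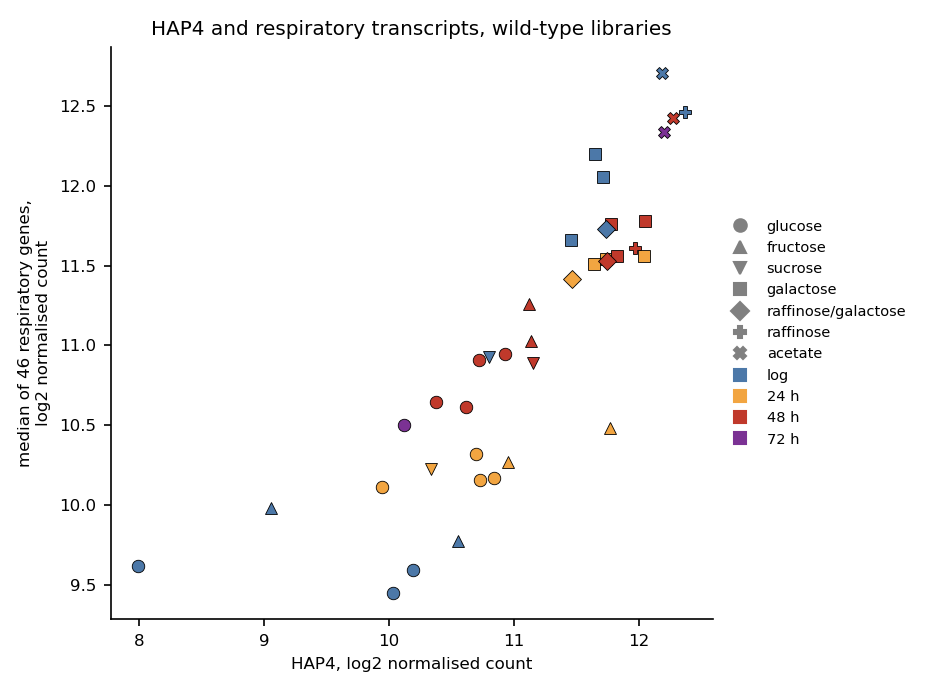
Median level of 46 respiratory genes against the HAP4 level (both log2 normalised counts) in the 38 WT samples of the carbon source table, with medium by symbol and age by colour. In glucose log phase (blue circles) HAP4 ranges from 7.99 to 10.19 while the median of the 46 genes stays between 9.45 and 9.61.

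In cox9 gal80 the 46 genes had medians of −1.07, −1.01 and −1.20 against WT on galactose from log phase to 48 h, but its 2 cultures lay far apart. Their median levels of the 46 genes were 11.40 and 10.28 in log phase, 11.05 and 10.20 after 24 h and 10.93 and 10.20 after 48 h, with WT at 11.66 to 12.20 in log phase. HAP4 differed there by −0.21, 0.10 and −0.81, and COX9, deleted by design, was the only gene of the list called at any age. In snf4 at 24 h 2 were called lower (median −0.25, 2.86% of genes called), SDH1 and KGD2, named after their values were seen. In cat8 0 were called at any age. In the sorted fractions of Pgpd-HAP4 the 46 genes had a median of −1.18 in low against high WGA, and 4 of the 46 differences were positive. Of these genes 1 was called higher and 1 lower, where 14.4% of genes were called, the aconitase gene ACO1 (2.21) and the ATP synthase gene ATP5 (−2.05), named likewise. In medium against high WGA the median was −0.74, with 0 of 46 positive and 0 called.

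Likeness of pattern was described by Pearson's r over the 38 WT samples, which share media, depth and experiments, and carries no test. The 5 genes most like HAP4 were NDE1 (0.917), a mitochondrial NADH dehydrogenase, MAL31 (0.917) and MAL11 (0.885), both maltose transporters, PST2 (0.899) and FMP43 (0.887). For HAP3 they were AIM1 (0.915), AIM13 (0.914), MIA40 (0.882), AIM33 (0.867) and COX14 (0.866), of which MIA40 acts in mitochondrial import and COX14 in cytochrome c oxidase assembly. For HAP2 they were YGR130C (0.895), SLM1 (0.876), PYK2 (0.875), SGN1 (0.868) and YDL180W (0.868). For HAP5 they were PET117 (0.858), also an oxidase assembly factor, OXR1 (0.829), KRE28 (0.820), AIM31 (0.810) and YNK1 (0.785). Over all 59 samples 1, 3, 2 and 2 of the 5 were again among the closest for HAP4, HAP3, HAP2 and HAP5. Among the 100 most alike of 5941 genes, 33 of the 46 respiratory genes were found for HAP4, 12 for HAP2, 3 for HAP3 and 1 for HAP5, and over all 59 samples 41, 2, 6 and 0.

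Among themselves the subunits were less alike than these. The closest pair was HAP2 and HAP3 (r = 0.709), then HAP3 and HAP5 (0.699), HAP2 and HAP4 (0.648), HAP2 and HAP5 (0.638), HAP3 and HAP4 (0.540), and HAP4 and HAP5 (0.434).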

How the data were processed

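The authors trimmed single-end reads of directional poly(A)+ libraries (Trim Galore 0.6.6), aligned them to R64-1-1 with HISAT2 2.1.0 and quantified each open reading frame in SeqMonk from reads of the opposing strand. They deposited log2 values, scaled by size factors separately in each table, so groups were compared only within a table. The deposited values fall on whole reads (100% in every sample). They are log2 values rather than counts, so limma 3.58.1 (R 4.3.3) was used on quantile-normalised values, with deposited values for the sorted fractions, on genes whose log2 values averaged 2 or more, 2-sided, at an adjusted p of 0.01. The fit was tested on simulated data. Python 3.11.15 was used for summaries.

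The members and lists were chosen with earlier results of these data known. Named genes are the 4 subunits, fixed examples of the list of targets with HAP1, the 5 genes most like each subunit, strains at either extreme of HAP4 and the targeted gene of each strain. The 8 libraries present in more than 1 table differed by at most 0.0364 between tables. Across 69 replicate pairs the smallest chi-square per gene was 2.42, so none was counted as a duplicate. Of the gene identifiers 5985 were found in the RefSeq R64 annotation. Experiment numbers were taken as pairing where, over 3 pairs, every correlation of deviations was over 0.1 (6 of 10 media shift comparisons). Even there the results given first are from fits without pairing, with the replicate block as an alternative. Alternatives were other scalings, filters, pseudocounts, samples in the fit, a replicate block and leaving out each sample. Protein sequences were not used here.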

Additional observations from a re-analysis of the deposited data

Results flagged for a closer look

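HAP4 in WT on glucose at 24 h had 1 sample apart from the other 3. The level of E34 was 9.94 against 10.69 to 10.84, and the gap made up 0.835 of the range of the group, over the Dixon limit of 0.829 for 4 samples. Of the 8 groups tested, chance flags about 1 in 20.

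HAP4 changed by −0.42 from log phase to 48 h on glucose in mig1, opposite to the 11 other mutants with an intact HAP4 gene. There was 1 library per age, and the difference was not tested.

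In Pgpd-HAP4 the HAP4 level changed by a mean of −0.93 from log phase to 48 h within experiments on the deposited scale, and in WT by 1.35. Every pair of one strain moved opposite to every pair of the other. Only E30_2 held both strains at both ages, with −0.98 in Pgpd-HAP4 and 0.53 in WT. The limma interaction on quantile-normalised values was not called (adjusted p = 0.643).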

How the results depend on the processing

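For HAP4, 235 of 257 results under other settings kept direction and side of the threshold, 7 lost the call, 12 gained one and 3 turned. For HAP2, HAP3 and HAP5 where called, 50 of 77 were kept, 25 lost and 2 turned; leaving out a sample kept 185 of 223 for HAP4 and 25 of 67 for the others. With all groups of a table in 1 fit the HAP4 differences for glucose at 24 h and 48 h (1.11 and 1.33), fructose at 48 h (1.42), galactose against glucose in log phase (2.04) and Pgpd-HAP4 against WT in log phase and at 24 h (3.09 and 1.71) were called, and that of cells moved to galactose against cells kept there (−0.41) was not. With equal totals HAP4 was called for glucose at 48 h (1.81) and Pgpd-HAP4 against WT at 24 h (1.79). The latter was also called with a mean log2 of at least 4 (1.71) and with a pseudocount of 16 (1.70), as was Pgpd-HAP4 at 48 h (1.52). On deposited values the age difference of Pgpd-HAP4 was called (−0.93). Without a filter galactose against glucose at 24 h (1.19 and, in the media shift experiments, 1.46) and the move to galactose (−0.41) were not. Differences that turned were HAP3 with age on glucose (0.41) and in Pgpd-HAP4 (0.063) and HAP4 after the move to glucose against cells kept there (−0.044), all with equal totals, HAP4 in cat8 at 24 h on deposited values (0.013), and HAP4 in low against high WGA after quantile normalisation (0.13), chosen after seeing the data. The cause was not tested.

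With the experiment as a replicate block the HAP4 difference between galactose and glucose was 1.40 at 24 h and 0.96 at 48 h, neither called, and that after the move to galactose −0.41, not called. The respiratory counts fell from 42 to 0 in log phase, 42 to 16 at 24 h and 33 to 0 at 48 h. In these galactose against glucose fits the block leaves almost no residual degrees of freedom, so the fall in counts cannot be read as smaller differences. Among the carbon source samples 2 experiments held both media, too few for the check of pairing by correlation.

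Leaving out 1 sample gave HAP4 ranges of 0.73 to 2.11 for fructose at 48 h, 1.41 to 2.40 for galactose against glucose in log phase and 1.00 to 1.28 at 24 h, −0.33 to 1.06 for fructose against glucose in log phase, 2.46 to 3.45 and 1.51 to 1.79 for Pgpd-HAP4 against WT in log phase and at 24 h, and −0.070 to 0.187 and −0.10 to 0.12 for cat8 in log phase and at 24 h. In the media shift experiments they were 1.33 to 1.66 for galactose against glucose at 24 h, 1.23 to 1.55 for age on glucose, 0.84 to 0.94 for the move to galactose against cells kept on glucose and −0.45 to −0.34 against cells kept on galactose. In the sorted fractions they were −0.47 to 0.015 for low against high WGA, −0.14 to 0.17 for medium against high and −0.49 to 0.0015 for low against medium.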
